A study of Mus musculus with 3 samples.

Results

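Npr3, Nfatc1, Cytl1, Hapln1, Tmem100 and Gata4 are genes known from the endocardium, the endothelium that lines the heart chambers. They were taken by gene symbol from a table of RNA bound to endothelial ribosomes of the mouse heart, and all 6 of them were found among its 17583 genes. The libraries come from the hearts of 3 EC-RiboTag mice, all of the genotype Cdh5-CreERT2;Rpl22tm1.1Psam. In these mice a tamoxifen-inducible Cre, driven by the VE-cadherin promoter of endothelial cells, switches the ribosomal protein gene Rpl22 to a version with a hemagglutinin tag, with which ribosomes were precipitated from heart homogenate. The sample labels date the hearts to day 7 after coronary ligation, and the methods of the study mention no ligation for this assay. The labels give no age or sex and do not spell out the letters Rz in the sample titles. For a PCR experiment the study describes EC-RiboTag precipitates from the remote zone of the heart, shortened to RZ, at the same day after infarction. Whether the sequenced libraries come from that zone is not stated, so the part of the heart that was homogenized is not known. The labels call the 3 mice biological replicates of 1 condition. Input RNA and control hearts were not analysed here. The values are therefore levels in the precipitate, and no difference between conditions was tested.

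The endocardium arises from early endothelial progenitors and shares most endothelial genes with the blood vessels. It is known for responding to natriuretic peptides, for secreting signals to the myocardium, and for giving rise to the mesenchyme of the heart valves. Npr3 encodes the natriuretic peptide clearance receptor, Nfatc1 a calcium-dependent transcription factor of valve-forming endocardium, and Gata4 a zinc finger transcription factor that is also used by cardiomyocytes. Tmem100 encodes a small membrane protein that is induced by the endothelial BMP receptor ALK1. Cytl1 encodes a small secreted protein, and Hapln1 a link protein that ties proteoglycans to hyaluronan.

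The 250 bases before the annotated start of the canonical transcript are shown for Npr3 and Tmem100 in GRCm39. Tmem100 is shown because its window holds letters of the GATA motif, and Npr3, the gene with the highest mean, for contrast, since its window has none. The Npr3 window lies inside the gene span of GENCODE M39, since other transcripts of the gene start further upstream. The same holds for the windows of Nfatc1, Gata4 and Hapln1, whereas those of Tmem100 and Cytl1 precede the gene. The windows therefore precede 1 transcript and not always the gene. Each sequence runs 5′ to 3′ on the strand of its gene, and capitals mark a GATA word on either strand. The words searched were AGATAA as 1 form, with TGATAA as another, and also AGATAG together with the form TGATAG.
Npr3, chr15:11906269-11906518, minus strand: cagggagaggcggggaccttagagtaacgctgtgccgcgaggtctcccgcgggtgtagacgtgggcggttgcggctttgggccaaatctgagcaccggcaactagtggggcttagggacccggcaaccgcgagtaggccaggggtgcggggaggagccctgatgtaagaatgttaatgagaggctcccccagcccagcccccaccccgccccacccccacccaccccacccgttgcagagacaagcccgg
Tmem100, chr11:89920872-89921121, plus strand: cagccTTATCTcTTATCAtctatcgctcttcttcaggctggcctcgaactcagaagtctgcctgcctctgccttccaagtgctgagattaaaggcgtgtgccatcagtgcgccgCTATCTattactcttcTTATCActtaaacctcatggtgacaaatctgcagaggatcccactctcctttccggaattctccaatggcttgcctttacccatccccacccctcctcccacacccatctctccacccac

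The Tmem100 window held 4 such matches. At least 1 match was present in 2 of the 6 windows and in 20.6% of the windows of 14236 protein-coding genes of the table. AGGAAA and, as the other form, TGGAAA, letters of the NFAT motif that include the core of ETS sites, were found on either strand in the windows of 3 of the 6 genes, against 36.7% of all windows. TATAAA was found in none of the 6 windows and in 7.54% of all windows. These matches describe letters and do not show binding. With 67.2% G or C, the Npr3 window was richer in these bases than the median window with 56.4%, and the Tmem100 window had 51.6%.

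The values of the table are normalized counts, read counts divided by a size factor for each library and rounded to whole numbers. They summed to between 7149102 and 7268785 in the 3 mice. Among low genes, rounding leaves gaps and doubled numbers, which gave an estimate of 0.977, 1.06 and 0.961 normalized counts per read in mice 1, 2 and 3, or between 6753000 and 7564000 reads in each library. Each pair of libraries differed by 5.48 to 8.31 times the squared deviation that counting alone gives, so no library repeats another. Mouse 1 stood apart in genes of the sex chromosomes, which were looked at because earlier results were known. Xist had 4, 618 and 869 normalized counts in mice 1, 2 and 3, and Ddx3y had 1080, 3 and 1. These are the values of a male in mouse 1 and of females in mice 2 and 3, so the replicates are of mixed sex. The part of sex in the spread between mice was not tested. Against the endothelial label, the 12 genes of a pan-endothelial list each had a mean of more than 1000 normalized counts, with Pecam1, Esam and Egfl7 highest per kilobase at 747, 746 and 719 and Robo4, Emcn and Tek lowest at 397, 461 and 472. RNA of other cell types was present too, as the marker lists given further on show.

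Npr3 (ENSMUSG00000022206; chromosome 15, 11839982 to 11907373 in GRCm39, minus strand) was the most abundant of the 6. In mice 1, 2 and 3 it had 1589, 914 and 2228 normalized counts, with a mean of 1577 ± 657 (SD, n = 3 mice), and ranked 598 among all genes. Mouse 3 was 2.44-fold above mouse 2, with mouse 1 between them. The coefficient of variation over the mice was 41.7%, where counting alone gives about 2.5% at this level. For the 2024 genes whose mean reached 1000 the median coefficient was 5.88%, and 0 of these varied more than Npr3.

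Nfatc1 (ENSMUSG00000033016; chromosome 18, 80649420 to 80756286, minus strand) was nearly as high. Its normalized counts were 1305, 1386 and 1658 in mice 1, 2 and 3, with a mean of 1450 ± 185 (SD, n = 3) and rank 779. Mouse 3 was the highest and 1.27-fold above mouse 1, the lowest. The coefficient of variation of 12.8% was far below that of Npr3, and 218 of the same 2024 genes varied more.

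Cytl1 (ENSMUSG00000062329; chromosome 5, 37892863 to 37897164, plus strand) had 555, 424 and 614 normalized counts, with a mean of 531 ± 97.2 (SD, n = 3) and rank 5182. Its order over the mice was that of Npr3, with mouse 3 first and mouse 2 last, but over a narrower range of 1.45-fold. Gata4 (ENSMUSG00000021944; chromosome 14, 63436371 to 63509141, minus strand) had 290, 272 and 545, with a mean of 369.0 ± 153 (SD, n = 3) and rank 7028. Mice 1 and 2 were close to each other, and mouse 3 was 1.88-fold and 2.00-fold above them.

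Tmem100 (ENSMUSG00000069763; chromosome 11, 89921174 to 89927334, plus strand) showed the same shape at a lower level. Its normalized counts were 217 and 218 in mice 1 and 2 and 336 in mouse 3, with a mean of 257 ± 68.4 (SD, n = 3) and rank 8511. Hapln1 (ENSMUSG00000021613; chromosome 13, 89687915 to 89759771, plus strand) was the lowest of the 6 genes with 18, 22 and 56 normalized counts, a mean of 32.0 ± 20.9 (SD, n = 3) and rank 12578. These values rest on about 18, 21 and 58 reads. The exact 95% Poisson intervals of the reads were 10.7 to 28.5 in mouse 1, 13.0 to 32.1 in mouse 2 and 44.0 to 75.0 in mouse 3, so mouse 3 lay above the others beyond counting error, which is all that these intervals cover.

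**Figure D1:**
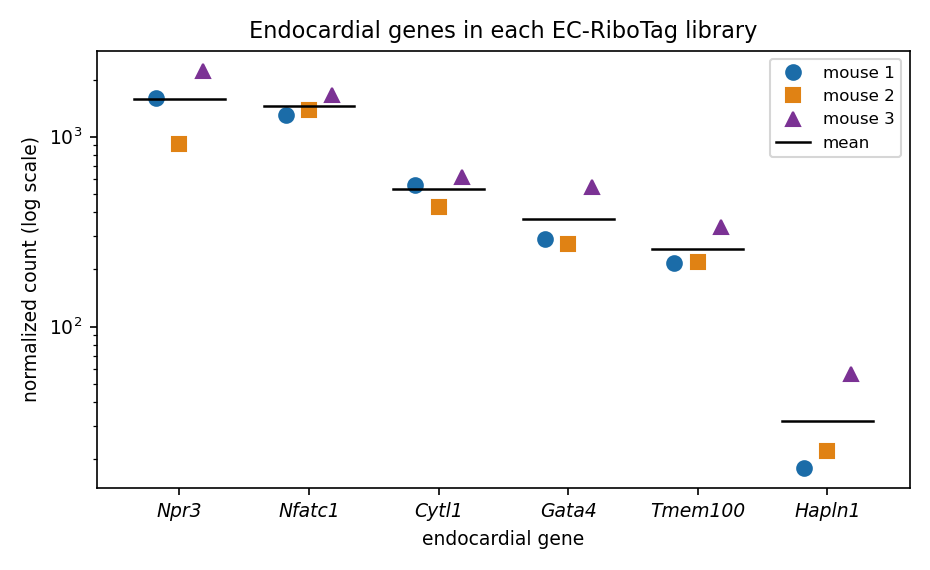
Normalized counts (log scale) of the 6 endocardial genes in each of the 3 EC-RiboTag libraries, with bars at the mean. The triangle of mouse 3 is the highest point of every gene, from 56 for Hapln1 to 2228 for Npr3, and mouse 2 is lowest for Npr3, Cytl1 and Gata4.

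The mean of each of the 6 genes reached 10 normalized counts, as that of 82.1% of all listed genes did, and 5 of them, all but Hapln1, had a mean of at least 200, as 53.2% did. In the annotation no exon of another gene overlaps their canonical transcripts on either strand. None of the windows of 72 bases, the read length, of these transcripts has an exact copy elsewhere in the genome.

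Since long transcripts collect more reads, levels of different genes were compared per kilobase of canonical transcript. On this scale Npr3 was the highest with 536 ± 223 normalized counts per kilobase (SD, n = 3) and rank 436 of 17475 genes with a length, followed by Cytl1 with 466 ± 85.4 and rank 706. Nfatc1 had 305 ± 38.9 per kilobase and rank 2138, Gata4 86.8 ± 35.9 and rank 8102, and Tmem100 77.2 ± 20.6 and rank 8531. Hapln1 had 5.43 ± 3.54 per kilobase and rank 14549. The median of all genes was 73.0 per kilobase, so Gata4 and Tmem100 lay near the middle of the table, Npr3, Cytl1 and Nfatc1 well above it and Hapln1 well below it. Some of these places depend on the length used. By coding length Tmem100 ranked 2980, and Cytl1 ranked 130 by all annotated exons but 5182 without division by length. Duplicate removal allows about 1 read per start position and strand, which limits how far a level near 1000 per kilobase can rise further. That limit is only approximate per kilobase of canonical transcript, since the capillary gene Gpihbp1 had 1637 on this scale. Npr3 reached 757 per kilobase in mouse 3, against 540 in mouse 1 and 310 in mouse 2.

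For neighbours in this order the log2 ratio was taken in each mouse and tested two-sided by flipping signs in an exact permutation test, which over 3 mice cannot give a p below 0.25, so none of the 5 pairs could pass 0.05. Npr3 exceeded Cytl1 in 2 of 3 mice, with a log2 ratio of 0.13 ± 0.38 (SD, n = 3; exact p = 0.75), and Gata4 exceeded Tmem100 in 2 of 3 mice, with 0.13 ± 0.20 (exact p = 0.5). Both differences lay within the spread between mice. Cytl1 exceeded Nfatc1 in 3 of 3 mice by a log2 ratio of 0.60 ± 0.24, Nfatc1 exceeded Gata4 by 1.88 ± 0.39, and Tmem100 exceeded Hapln1 by 3.99 ± 0.52 (SD, n = 3; exact p = 0.25 for each, the smallest possible). The place of Npr3 depends on its length. Its canonical transcript has 2944 bases, whereas all its annotated exons join to 12430 bases, by which it ranked 3172 and fell behind Cytl1, with a log2 ratio of -1.85.

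The 6 genes were then set beside marker lists of other endothelial cells in the same libraries. The median of the 12 pan-endothelial genes was 672 ± 21.0 normalized counts per kilobase (SD over mice, n = 3), and that of the 6 endocardial genes was 196 ± 36.9. The log2 ratio of these medians was -1.79 ± 0.30. The pan-endothelial median lies nearer the limit set by duplicate removal, whose part in this ratio was not tested. Taken singly, Npr3 stood at 74.8% of the pan-endothelial median, with log2 ratios of -0.36, -1.11 and 0.22 in mice 1, 2 and 3, and so exceeded it in mouse 3. Cytl1 stood at 68.6%, Nfatc1 at 45.1%, Gata4 at 12.3%, Tmem100 at 11.2% and Hapln1 at 0.710%. In RNA of a whole tissue, fewer cells of a type and less RNA per cell cannot be told apart.

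The capillary list (Rgcc, Fabp4, Car4, Cd36, Timp4, Gpihbp1 and Lpl) had a median of 713 ± 63.4 normalized counts per kilobase (SD over mice, n = 3), the arterial list 338 ± 12.0 and the venous list 326 ± 37.4. The median of the endocardial genes was below these 3 lists in each mouse, with log2 ratios of -1.88 ± 0.38, -0.80 ± 0.27 and -0.74 ± 0.10. The lymphatic list had 149 ± 41.2 per kilobase, below the endocardial genes by a log2 ratio of 0.41 ± 0.23, which turned to -0.29 when all annotated exons were used as length. The 6 endocardial genes ran from 5.43 per kilobase for Hapln1 to 536 for Npr3, so their median describes no single gene.

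**Figure D2:**
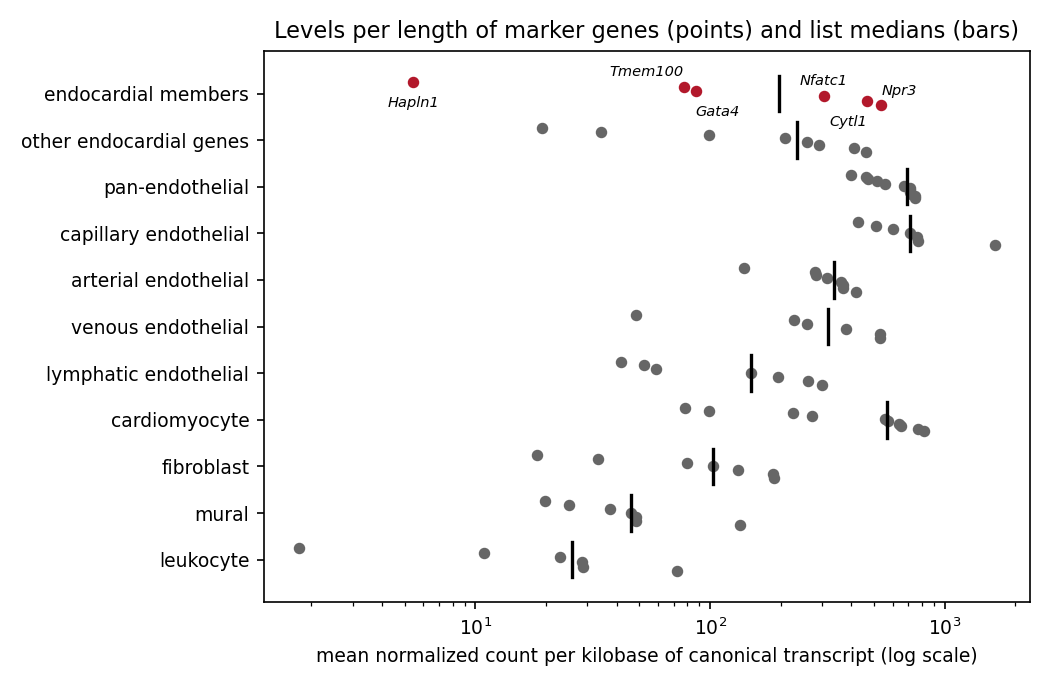
Mean normalized count per kilobase of canonical transcript (log scale) of each gene (points) in the endocardial set and in 10 marker lists, with a bar at the median of each list. Npr3 and Cytl1 reach the range of the pan-endothelial genes, while Hapln1 lies at 5.43 per kilobase.

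Mouse 3 had the highest value of each of the 6 endocardial genes. Of the 14441 genes whose mean reached 10, 30.9% were highest in mouse 3. The median log2 difference of mouse 3 from mouse 1 was 0.56 over the 6 genes and -0.00384 over all these genes, and that from mouse 2 was 0.81 against -0.01. The order of mouse 3 over mouse 1 over mouse 2 held for 3 of the 6 genes, Npr3, Cytl1 and Gata4, and for 13.8% of those 14441 genes. For Gata4, mice 1 and 2 were close, with 290 and 272 normalized counts. With a single condition, this is a difference between individual libraries.

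Genes of the wider endocardial repertoire, from a list that does not include the 6, had similar profiles. Of the 8 genes Nrg1, Smoc1, Adgrg6, Vwf, Plvap, Tmem108, Cgnl1 and Emcn, 7 were highest in mouse 3, against 30.9% of all genes whose mean reached 10. The exception was Emcn. This list was chosen with earlier results of these data known, and Emcn is also in the pan-endothelial list and Vwf in the venous list. Nrg1, which encodes the neuregulin that the endocardium sends to the myocardium, had 261, 95 and 348 normalized counts in mice 1, 2 and 3. Smoc1, a secreted calcium-binding matrix protein, had 670, 432 and 1059, and Tmem108, a membrane protein, had 328, 209 and 589. These 3 genes shared the order of Npr3, with mouse 2 lowest, and also its wide range. Vwf, which encodes von Willebrand factor and also marks veins, had 1898, 1886 and 3098, the adhesion receptor gene Adgrg6 had 72, 85 and 125, and the junction gene Cgnl1 had 1754, 1663 and 2486, all with mice 1 and 2 close together as for Gata4 and Tmem100. Plvap, which encodes the diaphragm protein of endothelial fenestrae, varied less with 785, 852 and 937. The sialomucin gene Emcn, which is used by capillaries as well, had 1258, 1194 and 1173 and was lowest in mouse 3.

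Lists of general and capillary endothelial genes had another profile. Of the 12 pan-endothelial genes, 1 (Cdh5) was highest in mouse 3, and of the 7 capillary genes 0 were. Their summed normalized counts were 27933, 26838 and 26687 in mice 1, 2 and 3 for the pan-endothelial list and 12251, 11093 and 10724 for the capillary list, against 3974, 3236 and 5437 for the 6 endocardial genes. The medians per kilobase of both lists lie nearer the limit set by duplicate removal than the endocardial median. Whether that limit narrows their differences between mice was not tested. In the arterial list Gja4 and Bmx were highest in mouse 3, and Sox17, Gja5, Hey1, Sema3g, Dll4 and Efnb2 in mouse 1. In the venous list Vwf, Vcam1, Ephb4 and Selp were highest in mouse 3, and Nr2f2 and Aplnr in mouse 1. Of the lymphatic list Flt4, Lyve1, Mmrn1 and Reln were highest in mouse 3 and Prox1, Pdpn and Ccl21a in mouse 2, and its sum was lowest in mouse 1, with 3739, 4662 and 5421.

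**Figure D3:**
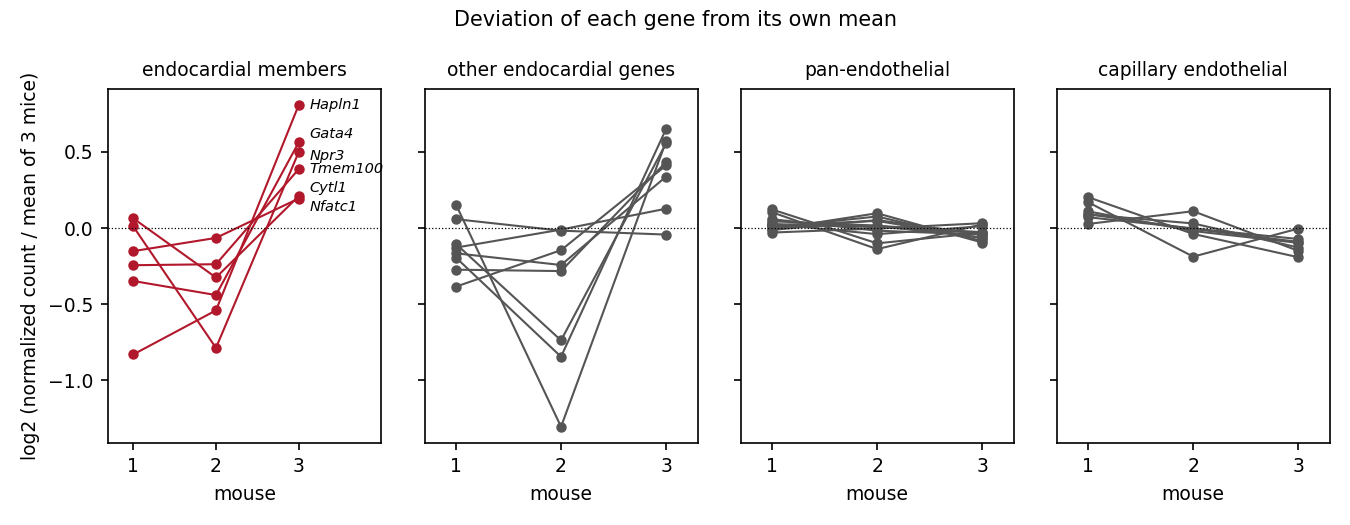
Log2 of the normalized count in each mouse over the mean of the 3 mice, 1 line per gene, for the 6 endocardial genes, 8 other endocardial genes, 12 pan-endothelial genes and 7 capillary genes. The endocardial lines end high in mouse 3, except that of Emcn, whereas the pan-endothelial and capillary lines stay close to 0 with capillary genes lowest in mouse 2 or 3.

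Other measures moved with mouse 3, and their part in the endocardial values was not tested except where a value is given. Transcript length did so most broadly. Genes whose mean reached 10 were divided by canonical length into 5 classes of like size. The median log2 difference of mouse 3 from the mean of mice 1 and 2 was -0.12 in the shortest class and 0.12 in the longest, and the share of genes highest in mouse 3 was 14.1% in the shortest and 54.6% in the longest. The 6 endocardial genes exceeded the median of their own length class in each case. For Cytl1, in the shortest class, the difference was 0.33 against -0.12, and for Hapln1, in the longest, it was 1.44 against 0.12. Npr3 had 0.83 and Tmem100 0.63 against -0.01 in the middle class, and Gata4 had 0.95 and Nfatc1 0.30 against 0.04 in the next longer one. Within these classes, 0.764% of genes had a larger difference than Hapln1, 2.61% than Gata4, 2.88% than Npr3, 4.75% than Tmem100, 9.17% than Cytl1 and 16.1% than Nfatc1. After the median deviation of each length class was subtracted in each library, 6 of 6 endocardial genes were still highest in mouse 3, against 30.2% of all genes so adjusted.

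**Figure D4:**
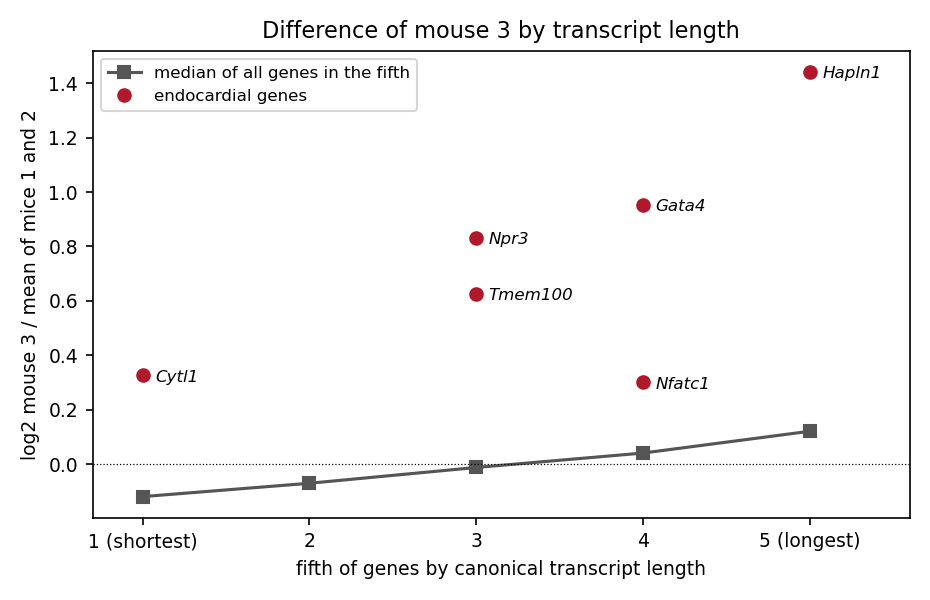
Log2 difference of mouse 3 from the mean of mice 1 and 2 (pseudocount 1) for the 6 endocardial genes (circles) and as the median of all genes with a mean of at least 10 (squares) in each of 5 classes of canonical transcript length. The medians rise from -0.12 to 0.12, and the 6 genes lie above them, from 0.30 for Nfatc1 to 1.44 for Hapln1.

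Markers of other cardiac cells gave a mixed profile. The 10 cardiomyocyte genes had a median of 565 ± 18.9 normalized counts per kilobase (SD over mice, n = 3) and sums of 19615, 20838 and 23724 in mice 1, 2 and 3. Of the 10, 3 were highest in mouse 3, Ttn, Ryr2 and Tnnt2, near the 30.9% of all genes whose mean reached 10. The rise of the sum in mouse 3 rests on the long transcripts of Ttn and Ryr2. Ttn had 7379, 7743 and 10190 normalized counts, and Ryr2 had 3280, 3667 and 4486. Tnni3, Actc1, Myl2, Myl3 and Mb were lowest in mouse 3, as was the list median per kilobase with 571, 581 and 544. Myl2, Tnnt2 and Myl3 were the highest per kilobase with 819, 769 and 651, and Ttn, Myh7 and Ryr2 the lowest with 78.5, 98.6 and 226. Gata4 is known from cardiomyocytes and fibroblasts as well, and whether these cells contribute to its values here was not tested. Among the atrial genes, Myl7 had 138, 14 and 105, Sln 27, 1 and 24, and Myl4 179, 116 and 219, so all of these were lowest in mouse 2, as Npr3 and Cytl1 were. Gata4 was lowest there too, but only by 272 against 290 in mouse 1. Nppa, the atrial natriuretic peptide gene, had 329, 415 and 318, the opposite order, and Bmp10 is not listed in the table.

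The fibroblast list summed to 2659, 3172 and 3531, with Pdgfra, Dcn, Lum and Tcf21 highest in mouse 3 and Col1a1, Col1a2 and Postn in mouse 2. Dcn, with 813, 579 and 1007, and Lum, with 458, 309 and 618, had the order of Npr3, as 2 of these 7 genes. The mural list of pericyte and smooth muscle genes summed to 1507, 1796 and 1936, with Myh11, Acta2, Pdgfrb and Abcc9 highest in mouse 3, Rgs5 and Cspg4 in mouse 2 and Kcnj8 in mouse 1. The leukocyte list summed to 432, 648 and 652, with Lyz2, Csf1r and Adgre1 highest in mouse 3 and Ptprc and Cd68 in mouse 2, and Cd3e is not listed. Of the epicardial list Upk3b, Krt19 and Muc16 were highest in mouse 3, and Krt8 is not listed. Its defining genes Upk3b with 10, 10 and 33, Msln with 15, 23 and 20, and Upk1b with 14, 14 and 11 were low, whereas Wt1, which endothelial cells can also express after infarction, had 871, 1055 and 939. Of the valve and cartilage-like list, Comp had 367, 193 and 524, in the order of Npr3, Fmod had 12, 12 and 35, Scx had 19, 16 and 14, Sox9 had 17, 30 and 19 and Chad had 1, 7 and 9, and Acan and Col2a1 are not listed.

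The spread between mice set the endocardial genes in 2 groups. Npr3, Gata4, Tmem100 and Hapln1 had a coefficient of variation over 20%, with 41.7%, 41.4%, 26.6% and 65.3%, and Cytl1 with 18.3% and Nfatc1 with 12.8% did not. Thus 4 of 6 genes exceeded 20%, against 24.2% of all genes whose mean reached 10. Of the 5 whose mean reached 200, 3 exceeded it, against 8.00% of all such genes. The median coefficient was 34.0% for the 6 genes and 9.92% for the 14441 genes. The count rests on mouse 3, since without it 1 of 6, Npr3, exceeded 20%.

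**Figure D5:**
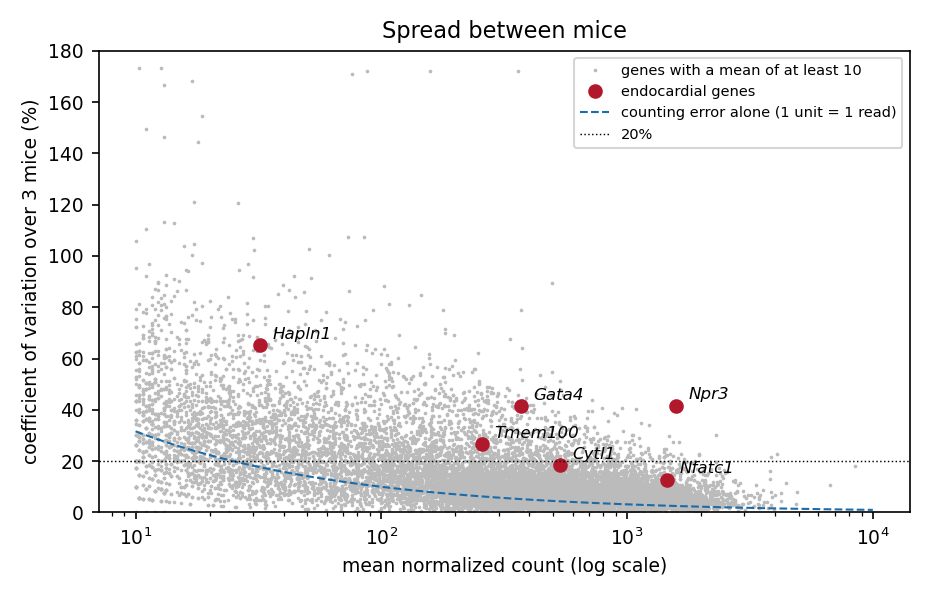
Coefficient of variation over the 3 mice (percent) against the mean normalized count (log scale) for all genes with a mean of at least 10 (grey) and the 6 endocardial genes (red), with a dashed line for counting error and a dotted line at 20%. Npr3, at a mean of 1577 and 41.7%, stands clear of genes of like level, whereas Nfatc1 lies at 12.8%.

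For the 4 genes over 20%, the most similar profiles, among genes whose mean reached 200, were found by the Euclidean distance of log2 values centred over the 3 mice. With 3 libraries many genes share a profile by construction, so these names are a description. Nearest to Npr3 were Evc with 242, 136 and 325 normalized counts (distance 0.044), Mal with 414, 235 and 627 (distance 0.0995) and Comp (distance 0.118). Nearest to Gata4 were Kank1 with 637, 572 and 1157 (distance 0.0467), Spen (0.0654) and B4galt6 (0.0841). Ces2g, Ptpn14 and Dop1b lay nearest to Tmem100 at distances of up to 0.0268. Hapln1 had no close match, with Zbtb16 at 0.197, Zbed6 at 0.199 and Pkhd1l1 at 0.305.

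Genes that work with the 6 were taken from 5 pathway lists and 2 lists of endocardial genes, of whose 82 genes 75 are listed in the table and 72 had a mean that reached 10. In the natriuretic peptide system, Npr3 was the receptor with the highest level per kilobase of canonical transcript, an order that rests on the length used for Npr3. In normalized counts it lay below Npr1 in mice 1 and 2 and below Npr2 in mouse 2. Npr1 and Npr2, the receptors that make cyclic GMP, had 259 and 270 normalized counts per kilobase of canonical transcript, against 536 for Npr3. Npr1 had 1652, 1495 and 1548 normalized counts in mice 1, 2 and 3 and Npr2 had 1320, 1050 and 1237, so neither was highest in mouse 3. The peptide genes Nppa and Nppb, which cardiomyocytes use, had 371 and 183 per kilobase, and Nppc had 11.1. The processing enzyme genes Furin and Corin had 379 and 70.5 per kilobase.

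The calcineurin and NFAT list varied between mice about as other genes of its level did. Of its 11 genes 0 exceeded a coefficient of variation of 20%, against 8.00% of all genes whose mean reached 200, and the median coefficient was 7.98% against 7.37%. Nfatc1 had the highest level of the 4 NFAT genes in the list with 305 normalized counts per kilobase, against 197 for Nfatc3, 71.1 for Nfatc4 and 55.9 for Nfatc2, while the calcineurin-binding gene Cabin1 had 83.1. All 4 NFAT genes, of which Nfatc1 is also 1 of the endocardial genes, were highest in mouse 3, against 30.9% of all genes whose mean reached 10. They exceeded their lowest library by 1.18-fold to 1.27-fold. Their transcripts are long. Nfatc1 and Nfatc4 fall in the second longest length class, where 39.9% of genes were highest in mouse 3. For the longest class, which holds Nfatc2 and Nfatc3, the share was 54.6%. Of the whole list of 11 genes, 5 were highest in mouse 3. After the adjustment for transcript length 4 were, near the 30.2% of all genes. Ppp3ca, which encodes the catalytic subunit of calcineurin, had 309 per kilobase with a coefficient of variation of 0.892%, and Rcan1, a calcineurin regulator that is itself an NFAT target, had 467 per kilobase and was lowest in mouse 3 with 976 normalized counts.

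Among the hyaluronan genes, Hapln1 had the third lowest level per kilobase, above Bcan with 1.66 and Has1 with 1.59. The other link protein genes were represented by Hapln3 with 62, 56 and 85 normalized counts, and Hapln2 and Hapln4 are not listed. Vcan, the proteoglycan that Hapln1 links to hyaluronan in the heart, had 43, 123 and 77 and so was highest in mouse 2, unlike Hapln1. The hyaluronan synthase genes had 318, 192 and 235 for Has3 and 1, 2 and 7 for Has1, and Has2 is not listed. The highest of this list were the hyaluronidase gene Hyal2 with 450.2 the receptor gene Cd44 with 110 and Has3 with 59.7 normalized counts per kilobase.

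Tmem100 stood low among the genes of ALK1 signalling. Acvrl1, which encodes ALK1, had 837 normalized counts per kilobase, its co-receptor gene Eng 809 and the target gene Id1 639, against 175 for Smad4 and 77.2 for Tmem100. Eng, with 2802, 2842 and 2828, and Acvrl1, with 1911, 1793 and 1727, were not highest in mouse 3. Of its 12 genes whose mean reached 200, 1 exceeded a coefficient of variation of 20%, Tmem100, which is near the 8.00% of all such genes. The circulating ligand gene Gdf2 had 1, 1 and 6 normalized counts.

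Gata4 was the third of the listed GATA genes. Gata2, the common endothelial GATA gene, had 388 normalized counts per kilobase, Gata6 113, Gata4 86.8, Gata3 50.5 and Gata5 5.59, and Gata1 is not listed. Of its partners Zfpm1 and Mef2c were highest with 239 and 208, and Tbx5 and Zfpm2 low with 21.7 and 18.2. Gata2, with 1525, 1262 and 1378, and Gata3, with 235, 89 and 169, were highest in mouse 1. Gata6, with 510, 400 and 645, and Gata5, with only 13, 4 and 39, had the order of Npr3. Of the 12 listed GATA factors and partners, Gata4 included, 7 were highest in mouse 3, against 30.9% of all genes. After the adjustment for transcript length 6 were, against 30.2%. Genes of a list for the endocardial cushions and valves were seen as well. The following, all highest in mouse 3, were picked out after their values were known. Hand2 had 427, 331 and 605, Tbx20 190, 261 and 386, Foxc1 824, 633 and 1073, and Notch1 1517, 1389 and 1967. Of the 17 genes of the cushion and valve list, 11 were highest in mouse 3, against 30.9% of all genes, and 9 after the adjustment for transcript length, against 30.2%. Gata5, Gata6, Hand2 and Tbx20 are also in the list of GATA factors and partners and were each highest in mouse 3. The counts of these lists are therefore not independent of each other. The highest of this list per kilobase were Msx1 with 326, Hey1 with 283 and Snai2 with 271, none of them highest in mouse 3, and the lowest were Sox9 with 5.27, Gata5 and Bmp2 with 22.3.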

How the data were processed

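RNA bound to tagged endothelial ribosomes was read from 1 end over 72 bases in 3 EC-RiboTag hearts, grouped by the sample titles into 1 condition. Per the labels and methods, the authors trimmed with Trimmomatic 0.39, aligned to mm39 with STAR 2.7.11a, removed duplicates (Picard 3.1.1), multi-mapping, ribosomal and mitochondrial reads, counted exons by strand (no reads over several genes) with featureCounts 2.0.4 and normalized with DESeq2 1.36.0. The deposited values are a score in that these normalized counts were rounded to whole numbers, so no count test was run. The sources do not say whether the hearts were processed together, so the spread holds biological and technical parts that cannot be told apart.

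Means, SDs, coefficients of variation and ranks were computed with Python 3.11.15, numpy 2.4.6 and pandas 2.3.3. Lengths are from GENCODE M39 (GRCm39), found for 17475 genes. Copies were searched with BLAST 2.17.0. Levels of genes were compared per kilobase of canonical transcript, with the exact sign-flip permutation test for neighbours. Alternatives were scaling (trimmed means, equal totals), length, filters and leaving out each mouse. Scaling by pan-endothelial genes and corrections for classes of length and GC were added after seeing the data. Scripts were tested on simulated data. The members and lists were chosen with earlier results of these data known. The rule for named genes took the members, genes of lists of up to 8 genes, the 3 highest and 3 lowest per kilobase of longer lists, and the 3 nearest profiles of members over 20%. Nfatc3, Hapln2, Hapln3, Hapln4, Has2, Vcan, Gata1, Gata3, Gata6, Hand2, Tbx20, Foxc1 and Notch1 were chosen after their values were seen. Upstream sequences of the other members and 1 gene of the marker lists are not reported here.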

Additional observations from a re-analysis of the deposited data

How the results depend on the processing

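Scaling by trimmed means or to equal totals left each mean and the counts of genes over 20% (4 of 6) and highest in mouse 3 (6 of 6) on the same side. The factors were close to 1, from 0.9995 to 1.0007 by trimmed means and from 0.98946 to 1.006 by equal totals, so this check is a weak one. Log2 ratios of lists are taken within each mouse, so scaling of a library cannot change them. Scaling by the pan-endothelial genes, and subtraction of length or GC classes, added after seeing the data, also left 6 of 6 highest in mouse 3. The median rank per base of the 6 genes, 5120, became 3394 by coding length and 4796 to 5781 with a mouse left out, and their log2 ratio to the pan-endothelial list became -1.05 by coding length and -2.29 without division by length, and lay between -1.96 and -1.68 with a mouse left out. Of the 5 neighbouring pairs, 3 kept their order in each mouse, and 3 to 5 with a mouse left out, with 5 when mouse 2 was left out. The number of genes over 20% was 1 to 5 with a mouse left out, with 1 when mouse 3 was. Npr3 to Cytl1 reversed to -1.85 by all annotated exons and -0.35 by coding length, and lay between -0.057, without mouse 3, and 0.32 with a mouse left out. Gata4 to Tmem100 reversed to -1.23 by coding length, and Cytl1 to Nfatc1 to -1.46 without division by length. The log2 ratio to the lymphatic list reversed to -0.29 by all exons and -0.23 without division, and that to the fibroblast list to -0.15 without division; the lymphatic ratio was 0.02 by the mean of log2 values. Apart from that without mouse 3, these reversals came with a change of the length that a gene is divided by. No paired analysis was possible because there is a single group. Depth limits Hapln1 most, with 18 to 58 reads per mouse.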
